A study of Caenorhabditis elegans with 4 samples.

Results

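The regions described here are autosomal binding peaks of SDC-1 that lay inside broad stretches of enrichment in embryos of the nematode C. elegans. They were chosen by chromosome and by peak width in replicate 2, as the whole-series peaks that were not on X and overlapped, by at least 1 bp, a replicate 2 peak wider than 1000 bp. By this rule 221 of the 1352 whole-series peaks were members, out of 964 on the 5 autosomes. The other autosomal peaks were 439 that overlapped only replicate 2 peaks of 1000 bp or less, called narrow sites below, and 304 that overlapped no replicate 2 peak. X held the remaining 388.

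The study mapped SDC-1 by chromatin immunoprecipitation and sequencing, in which DNA crosslinked to a protein is pulled down with an antibody and read. It had 2 ChIP samples and 2 input DNA samples of the wild-type strain N2, from mixed-stage embryos of a population of males and hermaphrodites kept at 20 degrees Celsius. Live embryos were crosslinked in 2% formaldehyde for 30 minutes, and SDC-1 was pulled down with a polyclonal antibody raised in rabbit and affinity-purified. The groups differ only in the immunoprecipitation, a mutant without SDC-1 was not analysed here, and neither were reads of the input DNA.

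SDC-1 is a zinc-finger protein that acts with SDC-2 and SDC-3 to bring the dosage compensation complex to the X chromosomes of XX animals, where the complex lowers transcription. The complex contains a condensin, a ring-shaped machine that shapes chromosomes, and it is loaded at recruitment sites on X from which it spreads. SDC proteins also act on an autosome, where they repress her-1, a gene that directs male development. Whole embryos mix many tissues, so a peak is an average over their cells. The share of male embryos was not examined here.

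A peak caller reports an interval in which ChIP reads exceed a background, with a score per interval that is the authors' own value. Scores run from 50.3 to 3119.7 in the replicate 1 list and from 50.08 to 3100 in the replicate 2 list. In the whole-series list they run from 1.31 to 170.28, so that list uses another scale. Levels were compared only within a list. The lists hold 530, 1160 and 1352 peaks in the same order, and their read depth is unknown. The labels do not say whether separate cultures of embryos were used for the replicates, so agreement between them may be technical. With 2 ChIP samples and members that share regions, no test over peaks was run, and the 95% intervals are exact Clopper-Pearson intervals for shares and order-statistic intervals for medians. They cover counting error only.

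The 221 members lay in 95 broad regions. Most regions (67 of 95) held 1 or 2 members and few held many, and member scores were low, while the regions that held them were strong and mostly recurred in replicate 1. The whole-series list split a region into 2.33 peaks on average and at most 8. Of the 95 regions, 40 held 1 member, 27 held 2, and 28 held 3 or more. The 10 regions with the most members held 62 of them, or 28.1%. Narrow sites were almost never split, with 1.03 whole-series peaks on average over the 429 that held any. Broad regions on X held fewer peaks each than the autosomal ones, with 1.57 on average over 54 regions and at most 4. These counts do not allow for width. Per kb of region, the median was 0.946 peaks (interval 0.867 to 1.1) in the autosomal regions. It was 0.844 (interval 0.763 to 0.966) in broad X regions, and these intervals overlapped. At the shorter narrow sites it was 1.98.

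The 95 regions had a median width of 1617 bp (interval 1405 to 1939 bp) and ran from 1019 to 7242 bp. Together they spanned 224 kb, of which the members covered 114 kb. The share of a region that its members covered ran from 4.1% to 96.6%, with a median of 58.1%. Regions with 3 or more members had a median width of 3474 bp, against 1252 bp for regions with 2 and 1322 bp for regions with 1. Across the 95 regions, width and number of members had a Spearman's rho of 0.57, while width and the highest member score had a rho of -0.02. These are descriptions across regions of 1 list, which share its library and depth.

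Members were wider than other autosomal peaks of the same list. Their median width was 356 bp (interval 320 to 404 bp), against 305 bp at narrow sites and 185 bp where replicate 2 had no peak. Of the 221 members, 24 were themselves wider than 1000 bp, against 1 of the other 743 autosomal peaks. The widest member, V 4333179 to 4336559 (3381 bp), filled 94.0% of its region. Since the rule asked for a wide replicate 2 peak, these widths describe the choice and are no separate result.

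Within a region, neighbouring members lay close together. Over 126 neighbouring pairs, the distance between centres had a median of 636 bp (interval 579 to 732.5 bp), and the gap from the end of one to the start of the next had a median of 223 bp. The smallest gap was 43 bp and the largest was 2912 bp. In regions with 1 member, that member sat near the middle, with a median position at 49.7% of the region's width, and 23 of 40 lay between 40% and 60%. In regions with 2 or more, the highest-scoring member lay between 40% and 60% in 11 of 55. The first and last 20% of region width held 29 and 28 members, against 58 in the middle 20%. A member that fits inside a region cannot have its centre at the region's edge, which limits how this can be read.

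**Figure D1:**
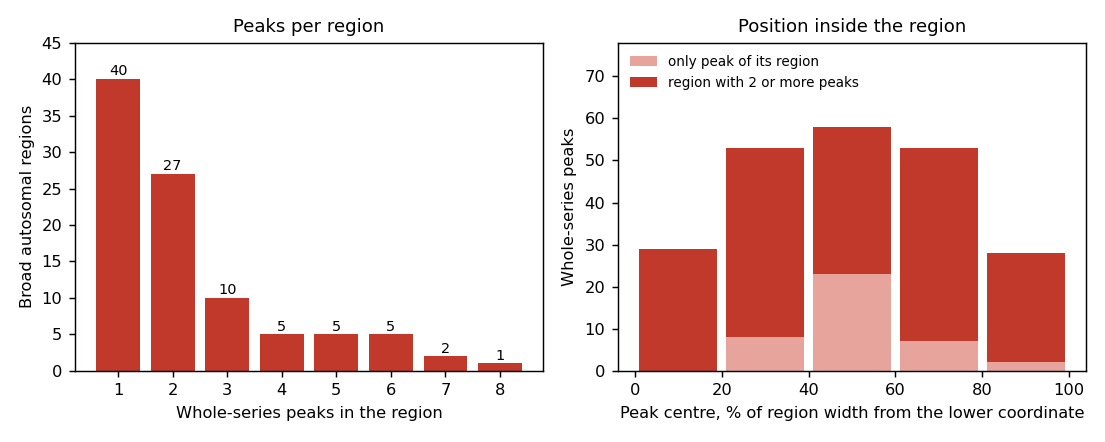
Left, the number of broad autosomal regions (bars) by how many whole-series peaks each held. Right, where the centres of the 221 members lay across the width of their regions, in steps of 20%, with the 40 members that were alone in a region in the lighter colour. Regions with 1 member were the most frequent class (40 of 95), and lone members lay mostly in the middle.

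The region with the most members lay on I from 13404301 to 13408535 in WS220 coordinates. It was 4235 bp wide with a replicate 2 score of 861, and it held 8 members with scores from 1.44 to 12.2. Replicate 1 called the same stretch as 1 peak of 4125 bp with a score of 313, whose edges lay 51 and 59 bp inside those of replicate 2. Both replicates therefore reported 1 broad interval where the whole-series list had 8 short ones, the widest of them 480 bp. The genes in this and the other regions are not named, because an annotation of this build was not used here.

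The same picture held for 7 of the other 9 regions with the most members, in that a replicate 1 peak wider than 3000 bp lay in each. Of the 5 regions with 5 members, the 10 took in the 2 widest, and the other 3 had no such replicate 1 peak. Over all regions with 5 or more members the count was thus 8 of 13. This count depends on region width. I 3763095 to 3765874 (2780 bp) and V 16707076 to 16709512 (2437 bp) were themselves narrower than 3000 bp. In the first, a replicate 1 peak of 218 bp covered 7.84%, but in the second, 1 replicate 1 peak of 2350 bp covered 96.4%. On V from 10605624 to 10612555, 7 members scored from 3.61 to 9.23 in a replicate 2 region of 6932 bp, and replicate 1 had 1 peak of 6874 bp. On IV from 4416373 to 4422125, 6 members scored from 4.09 to 7.58, in replicate peaks of 5668 bp (replicate 1) and 5753 bp (replicate 2). On V from 3434524 to 3441169, 6 members scored from 3.61 to 5.18, in replicate peaks of 6534 bp (replicate 1) and 6646 bp (replicate 2). In this last region the 6 member scores were nearly level, while those on I spread from 1.44 to 12.2.

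Coverage by members differed among these wide regions. On I from 10945875 to 10953116, the widest region of all that held members (7242 bp), the 6 members covered 17.9% of the width and scored from 1.42 to 11.7. Replicate 1 covered 99.3% of it with 1 peak of 7189 bp. On V from 5073227 to 5076873, 5 members lay in a region with a replicate 2 score of 51.3, near the lowest of that list. Its replicate 1 score of 82.2 was below 119, the lower quartile over the regions that recurred. Replicate 1 still covered 98.8% of it. Rank by number of members thus took in strong and weak regions alike.

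The remaining 2 of the 10 had little or partial replicate 1 coverage. On III from 6566898 to 6573299, a region of 6402 bp with a replicate 2 score of 789.8 held 5 members, and replicate 1 had only a 444 bp peak with a score of 54.6, covering 6.94%. On I from 4542295 to 4547853, replicate 1 covered 69.3% of a 5559 bp region that held 7 members, in 2 peaks. Another broad region ended 42 bp before it, and together they held 10 members.

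**Figure D2:**
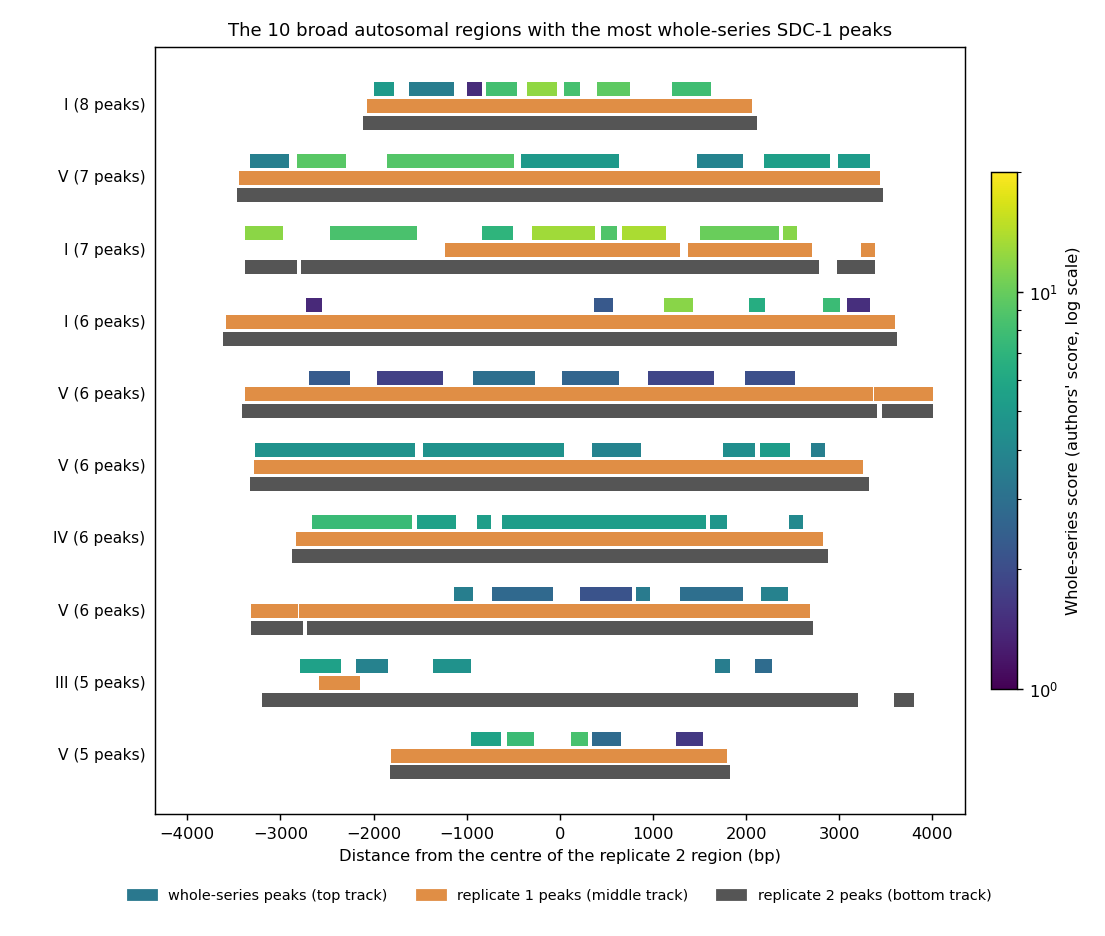
Maps of the 10 broad autosomal regions with the most members, one row each, labelled by chromosome. The horizontal axis is the distance in bp from the centre of the replicate 2 region, the top track shows whole-series peaks coloured by score, the middle track replicate 1 peaks and the bottom track replicate 2 peaks, including neighbours up to 600 bp outside. Ties at 5 members went to the wider region. In 8 of 10 rows, and 8 of 13 regions with 5 or more members, a replicate 1 peak wider than 3000 bp lay under several whole-series peaks. The 13 include regions that were themselves narrower than 3000 bp.

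Recurrence in replicate 1 was the measurement that the rule did not use, although the sources used here do not say how the whole-series list drew on the replicates. Of the 221 members, 166 overlapped a replicate 1 peak (75.1%, interval 68.9 to 80.7%). Over all 964 autosomal whole-series peaks the share was 37.9%, and over all 1352 it was 38.7%. At narrow sites it was 181 of 439 (41.2%, interval 36.6 to 46%), and where replicate 2 had no peak it was 18 of 304 (5.92%). The interval of the members did not overlap that of the narrow sites, but a region wider than 1000 bp also meets a replicate 1 peak more easily, and members of one region were counted each. Counting only members with at least 50% of their bases in replicate 1 peaks gave 72.9%, against 40.1% at narrow sites. The order against narrow peaks differed between classes of replicate 2 score. Below a replicate 2 score of 150, replicate 1 overlapped 10 of 28 broad autosomal peaks (35.7%), against 49 of 485 narrow ones (10.1%). From 150 to under 500 it overlapped 46.4% of 56 broad and 49.4% of 160 narrow peaks, and from 500 to under 1000 it overlapped 76.9% of 26 broad and 95.9% of 49 narrow peaks. At 1000 and above it overlapped 24 of 28 broad peaks (85.7%), against all 22 narrow ones. Taking all scores of 500 or more, 44 of 54 broad peaks recurred (81.5%, interval 68.6 to 90.7%), against 69 of 71 narrow peaks (97.2%, interval 90.2 to 99.7%). The share of broad peaks was thus above that of narrow peaks over all scores and below it at scores of 500 or more, where the intervals overlapped slightly; the difference was not tested. Members that recurred had a median whole-series score of 5.5, against 4.36 for the 55 that did not.

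Counted by region, 73 of the 95 overlapped a replicate 1 peak (76.8%, interval 67.1 to 84.9%), where the share over all 854 autosomal replicate 2 peaks was 32.4%. Of the 429 narrow sites that held a whole-series peak, 179 did (41.7%, interval 37 to 46.6%), and of 54 such broad regions on X, 52 did (96.3%). Kept to the 50% of replicate 1 peaks with the highest score, recurrence of the 95 regions was 47.4%. Of the 73, 57 overlapped 1 replicate 1 peak, 12 overlapped 2, 3 overlapped 3 and 1 overlapped 4.

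Replicate 1 also called most of these stretches as broad. A replicate 1 peak wider than 1000 bp lay in 54 of the 95 regions (56.8%, interval 46.3 to 67%). Over all 138 broad autosomal replicate 2 peaks it was 60 (43.5%). Among the 43 of these without members it was 6 (14%, interval 5.3 to 27.9%). The share over all 854 autosomal replicate 2 peaks was 7.03%, but none of the 716 narrow ones had such a peak. That low share thus follows from the narrow peaks in it and is no separate result. A replicate 1 peak of this width lay in 19 of 54 broad X regions that held peaks (35.2%, interval 22.7 to 49.4%). In the whole replicate 1 list, 77 of 361 autosomal peaks and 28 of 169 X peaks were wider than 1000 bp. Of those 77, 64 overlapped a broad replicate 2 peak (83.1%), and no other of the 77 overlapped any replicate 2 peak.

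Where both replicates called a region, its edges lay close together. In the 57 autosomal regions with a single replicate 1 peak, the starts differed by a median of 54 bp and the ends by 48 bp, and both edges lay within 100 bp in 34 (59.6%, interval 45.8 to 72.4%). In 47 broad X regions with a single replicate 1 peak, the starts differed by a median of 245 bp and the ends by 201 bp, and both edges lay within 100 bp in 8 (17%, interval 7.65 to 30.8%). At 176 narrow sites the medians were 85 and 81 bp, with both edges within 100 bp in 72 (40.9%). The median share of a region that replicate 1 peaks covered, regions with none included, was 83.6% (interval 69.3 to 91.7%) for the autosomal regions and 62% (interval 54.9 to 67.3%) for the broad X regions. Broad X regions thus had the higher share in replicate 1 and broad autosomal regions the closer edges, and neither difference was tested.

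**Figure D3:**
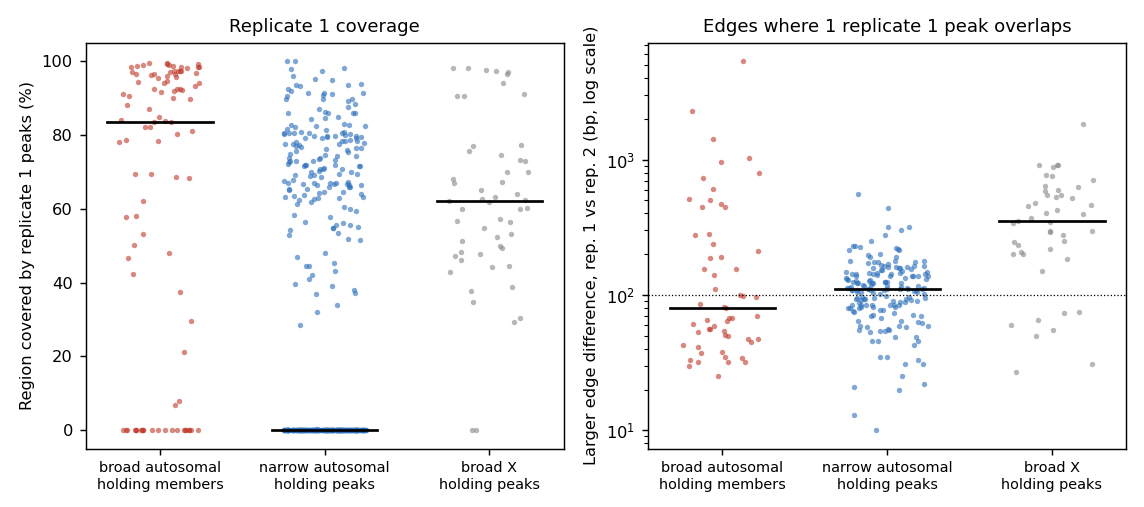
Left, the percent of each replicate 2 interval covered by replicate 1 peaks, one point per interval. Right, the larger of the differences at the start and at the end, in bp on a log scale, for intervals with 1 replicate 1 peak; the dotted line marks 100 bp. Black bars are medians, at 83.6% and 80 bp for broad autosomal regions, at 0% and 110.5 bp for narrow autosomal sites and at 62% and 350 bp for broad X regions.

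Not all strong regions recurred. Replicate 1 had no peak in 22 of the 95 regions, and the widest of these lay on I from 3389898 to 3393386, with a replicate 2 score of 1570 and 5 members scoring from 1.85 to 5.13. The next were I 1120858 to 1124298 with a replicate 2 score of 1236 and 4 members, II 694293 to 697622 with 635 and 1 member, IV 9045683 to 9048790 with 2197 and 4 members, and II 1034421 to 1036511 with 601 and 3 members. The region on IV ranked 53 of 1160 by replicate 2 score. Its absence from replicate 1 is an absence from the called list, and the reads there were not analysed here.

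Member scores were low for the whole-series list. Their median was 5.23 (interval 4.59 to 5.62), against 6.53 over the other 743 autosomal peaks, 11.8 at narrow sites and 4.28 where replicate 2 had no peak. A region with several members enters that median several times. Taking only the highest-scoring member of each of the 95 regions, the median was 7.96 (interval 6.22 to 9.26). That is above the 6.53 of the other autosomal peaks, and below the 12.1 of the 429 narrow sites taken the same way. Of the members, 9 (4.07%) reached the top 25% of the whole list, at a score of 16.24 or more, against 173 of 439 at narrow sites (39.4%). In the bottom 25%, at 3.93 or less, were 78 members (35.3%), against 73 at narrow sites (16.6%). X peaks inside broad regions had a median score of 14.3 over 85 peaks.

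The regions that held these low-scoring members were strong in replicate 2. Their median replicate 2 score was 565 (interval 493 to 643.5), against 149 for the narrow sites that held a peak and 3100, the largest score of that list, for broad X regions that held one. In replicate 1 the highest overlapping score had a median of 263 over the 73 regions that recurred, against 155 over 179 narrow sites. By these medians both replicate lists placed the regions above narrow sites, and the whole-series list placed their peaks below. The same reads of replicate 2 may underlie the rule and these scores, so the order is given as a description.

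The contrast with narrow sites was also present at matched replicate 2 scores. Among replicate 2 peaks with scores from 500 to under 1000, the highest whole-series score had a median of 9.99 over 25 broad autosomal regions, against 56.2 over 48 narrow sites. At 1000 and above, it was 10.4 over 28 broad regions, against 85.2 over 22 narrow sites. None of 54 broad autosomal peaks with a replicate 2 score of 500 or more reached a whole-series score of 50, against 48 of 71 narrow ones (67.6%). The cut of 50 was not a planned setting and lies just above the highest member score, 47.6. That no broad region reached it thus follows from where it was put. From 150 to under 500 the medians were 7.89 over 33 broad regions and 19.9 over 142 narrow sites, and below 150 they were 4.1 over 9 and 7.77 over 217. The ranges of broad autosomal regions and narrow sites overlapped in every class. In the 500 to 1000 class they were 1.51 to 47.6 in broad regions and 3.41 to 92.8 at narrow sites. Broad X regions below 1000 were few, and their medians were near those of the broad autosomal regions. They were 5.665 over 4 below 150, 5.835 over 4 from 150 to under 500 and 11.2 over 5 from 500 to under 1000. At 1000 and above, the X median was 159 over 41 regions.

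Among replicate 2 peaks that recurred, replicate 1 scores did not show the gap between broad autosomal regions and narrow sites. In the 500 to 1000 class the median of the highest replicate 1 score was 272 over 20 of 26 broad autosomal regions. It was 234 over 47 of 49 narrow sites. At 1000 and above it was 417 over 24 of 28 broad regions, against 484 over 22 of 22 narrow sites. Peaks that did not recur have no replicate 1 score and were left out. They made up more of the broad regions than of the narrow sites, so these medians do not compare all replicate 2 peaks. Across regions that held a member, replicate 2 score and highest whole-series score had a Spearman's rho of 0.43 (95 regions), against 0.66 at narrow sites (429). Replicate 1 score and highest whole-series score had a rho of -0.15 (73 regions), against 0.65 at narrow sites (179) and 0.84 in broad X regions (52). The scores of the 2 replicates also agreed less in broad autosomal regions. Their rho was 0.41 over the same 73 regions, against 0.69 at narrow sites and 0.84 in broad X regions. The lists were called with different versions of the caller, and the definition of each score is not given in the files, so the part of the scale in this contrast was not tested.

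**Figure D4:**
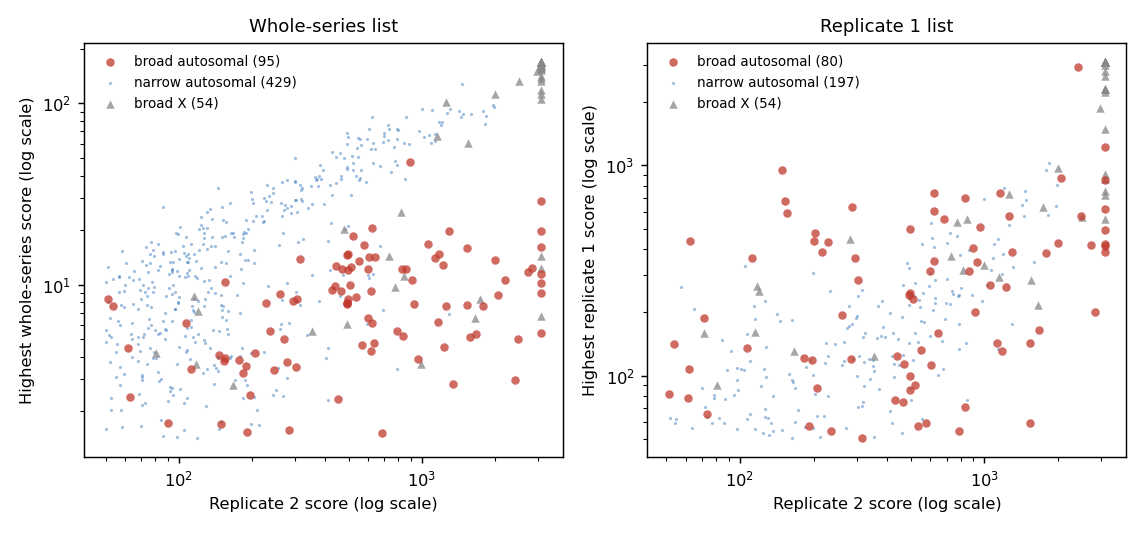
Highest whole-series score (left) and highest replicate 1 score (right) against the replicate 2 score of each replicate 2 peak, all on log scales, for broad autosomal regions, narrow autosomal sites and broad X regions; peaks with no overlapping entry are not drawn and the number drawn is in the legend. At replicate 2 scores of 500 and above, broad autosomal regions lie below 50 on the left axis, while 48 of 71 narrow sites reach it. The value of 50 was not a planned setting and lies just above the highest member score, 47.6.

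Of the regions that held members, 7 reached the replicate 2 limit of 3100, and all 7 overlapped replicate 1. The strongest of them by whole-series score was III 3334286 to 3337097, where 1 member of 2718 bp scored 29 and replicate 1 scored 1223. V 4333155 to 4336751 and V 14768160 to 14769834 held 1 member each, with scores of 19.8 and 16.2. II 12843652 to 12846204 held 1 with 5.43, II 14337492 to 14339282 held 2 with up to 10.3, III 2496632 to 2501836 held 2 with up to 11.4, and III 7444258 to 7448839 held 4 with up to 9.04. In 4 of the 7, the whole-series list kept the region as 1 long peak.

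The highest-scoring members were few. The top 2, with scores of 47.6 and 32.7, shared a region on II from 14635065 to 14636218 (1154 bp wide), with a replicate 2 score of 898 and replicate 1 scores of 404 and 62.7 under them. They ranked 142 and 206 of the 1352 whole-series peaks. The third was the long peak on III at 29, and the other 7 of the top 10 scored from 16.16 to 20.5. Among these 10, only II 4260046 to 4260470, with 20.5, overlapped no replicate 1 peak. In regions with 2 or more members, the highest score was a median of 1.95 times the lowest (55 regions, range 1.01 to 9.49).

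Broad regions also lay next to one another. Of the 95, 31 lay less than 5000 bp from another broad region, with or without members (32.6%, interval 23.4 to 43%). On X, where all 58 broad regions were counted, 8 did (13.8%, interval 6.15 to 25.4%). Neighbours count each other, and the intervals do not allow for that. Some neighbours nearly touched, with a gap down to 2 bp. Over all 138 broad autosomal regions, the set to compare with the 58 on X, 42 lay this close to another. They formed 16 clusters with 62 members. The median gap to the nearest broad region was 102 kb for the 95 regions and 83.7 kb for the 58 on X, so most broad regions stood alone.

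The cluster with the most broad regions lay on II from 13817482 to 13827770. In 10289 bp it held 6 broad regions of 1252 to 1391 bp, whose centres lay 1595 to 1876 bp apart. All 6 overlapped a replicate 1 peak, and those peaks were 1005 to 1206 bp wide. Replicate 2 scores ran from 285 to 536 and replicate 1 scores from 57.4 to 246. The 7 members scored from 1.57 to 14.7, and 5 of the 6 regions kept 1 member each. Even widths were seen in both replicate lists, while members ran from 274 to 1020 bp.

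A second crowded stretch lay on V from 8830176 to 8898617 and was picked out after its values were seen. With regions less than 20000 bp apart joined, it held 12 broad regions in 68.4 kb, each 1052 to 1405 bp wide, with replicate 2 scores from 62 to 643.5. They held 14 members, and 6 of the 12 overlapped a replicate 1 peak. The part from 8889274 to 8898617 had 4 regions with 7 members, scoring from 7.25 to 14.2, and 3 of the 4 recurred. The part from 8872134 to 8878801 had 3 regions with 1 member, and none recurred. Neighbouring regions of similar width thus differed in whether replicate 1 called them, but they also differed in replicate 2 score. The 6 that recurred scored from 429 to 643.5 in replicate 2. Those that did not scored from 62 to 279, except 8894979 to 8896185 with 493.

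On V from 17117710 to 17132192, 3 broad regions followed each other with gaps down to 45 bp, and the last 2 held 12 members. All 12 had low scores, from 1.79 to 3.78. Replicate 1 had a peak of 6193 bp with a score of 2932 there, its highest in any broad region that held members, and a peak of 5488 bp with a score of 679. Replicate 2 scored these 2 regions at 2404 and 153. The 6 members of the region from 17119893 to 17126712 were evenly placed, with centres 864 to 1012 bp apart and widths of 438 to 708 bp. The largest distance was 1.17 times the smallest, while in the other 12 regions with 5 or more members this ratio ran from 2.13 to 11. The ratio was not among the planned measures, so it describes the most even of these regions and is no separate result. The region beside it had 6 members with centres 398.5 to 898 bp apart. Repeats in the sequence and input reads were not examined here or at the cluster on II. The spacing is thus that of called intervals only.

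**Figure D5:**
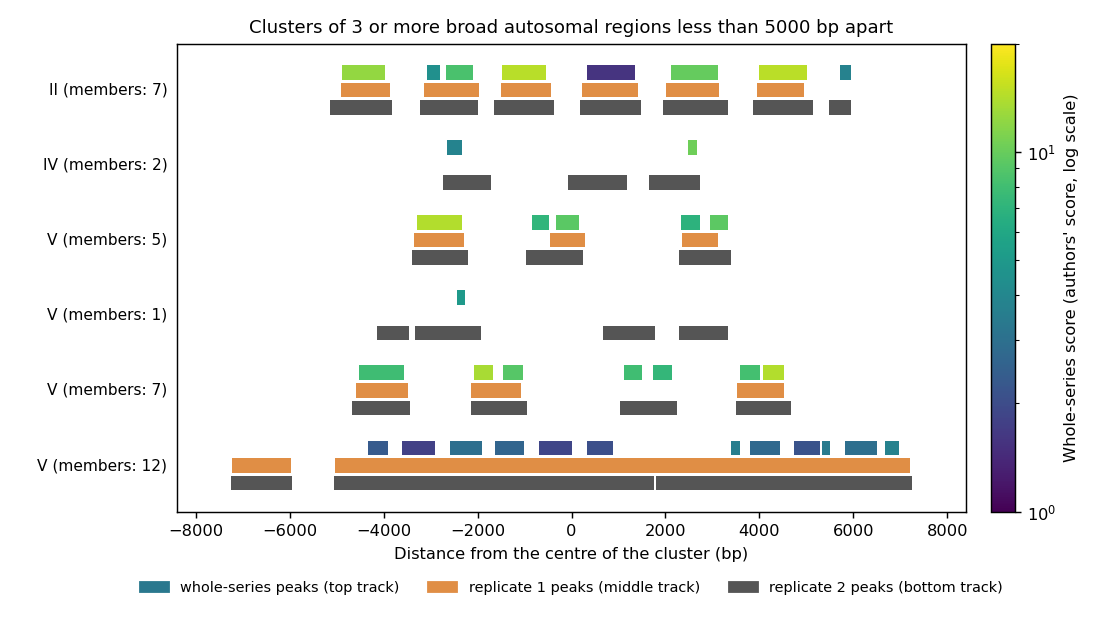
Maps of the 6 clusters of 3 or more broad autosomal regions less than 5000 bp apart, one row each, labelled by chromosome and number of members. The horizontal axis is the distance in bp from the centre of the cluster, with whole-series peaks coloured by score (top track), replicate 1 peaks (middle) and replicate 2 peaks (bottom), including peaks up to 800 bp outside that are not members. The top row shows 6 intervals of like width in each replicate, and the bottom row 12 low-scoring members under long replicate peaks.

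By chromosome, 52 members lay on I in 15 regions, 28 on II in 20, 36 on III in 14, 40 on IV in 19 and 65 on V in 27. Chromosome I held 23.5% of members (interval 18.1 to 29.7%), against 14.7% of the other autosomal peaks (interval 12.2 to 17.4%), and IV held 18.1%, against 24.4%. The members on I lay in few, well-filled regions, and by regions its share was 15 of 95. The middle 33% of the autosomes held 68 members (30.8%, interval 24.8 to 37.3%), against 34.2% of the other autosomal peaks, and 33 of the 95 regions (34.7%). The outer 10% at either end held 44 members (19.9%), against 21.8%. Both shares of the other autosomal peaks fell within the members' intervals (14.9 to 25.8% for the outer parts).

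The whole-series list had no peak in the other 43 of 138 broad autosomal regions. These had a median width of 1346 bp and a median replicate 2 score of 154, against 1617 bp and 565 for the regions that held members. Replicate 1 overlapped 7 of the 43 (16.3%, interval 6.8 to 30.7%), against 73 of 95. The widest of the 43 was I 15060210 to 15071361, which ends at the highest position any list reached on I. It was 11152 bp wide with a replicate 2 score of 288. Replicate 1 called 11127 bp of the same stretch, with a score of 636 in its own list. The strongest by replicate 2 score was I 11253378 to 11254571 with 656, and replicate 1 had no peak there.

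The 3 narrowest regions that held members were 1019, 1031 and 1032 bp wide, on IV, IV and I, with replicate 2 scores of 147, 177 and 304 and 1 member each that scored 4.1, 3.83 and 3.53, and replicate 1 had none of them. The 3 widest autosomal sites just below the limit that held a peak were 986, 984 and 977 bp wide, on V, I and IV, with replicate 2 scores of 278, 601 and 461 and peaks of 3.05, 11.3 and 8.68, and replicate 1 had the last 2.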

How the data were processed

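The files are peak lists of the ChIP samples. Each entry has 2 coordinates and a score. Per the file headers the build is WormBase WS220, and per the files' source column peaks were called with MACS (replicate lists) and MACS v2 (whole-series list). The submitters' processing notes name BWA and ce10, with no version or role. Scores are the authors' values, used as deposited. The sources used here do not say how replicates were combined, which control was used or what was filtered, and depth is unknown.

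The members and lists were chosen with earlier results of these data known. Overlap needed 1 bp. Broad means wider than 1000 bp. Chromosome lengths were taken as the highest position of any peak. The 10 regions with most members, the 10 highest-scoring members, regions at the largest replicate 2 score, the 5 widest without replicate 1 and those nearest the width limit were named. No test was run over peaks. Alternatives varied the width, the overlap, the score threshold and the replicate that defined the regions. Scripts were tested on simulated data first, with Python 3.11.15, numpy 2.4.6, pandas 2.3.3, scipy 1.17.1 and matplotlib 3.10.9.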

Additional observations from a re-analysis of the deposited data

How the results depend on the processing

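Over 8 results there were 62 alternative values, of which 38 stayed within the interval of the reported value (or within 1.5 times a count) and 23 moved outside it, while the difference of mean log10 scores (-0.19) is on another scale and was compared by sign alone; the score difference (-1.3) was below 0 in every one. With broad set above 1500 bp, recurrence in replicate 1 was 81% of members and 85.2% of regions, the covered share 94.3%, members per region 2.5 and the share in the middle 33% was 23.9%. Above 2000 bp there were 133 members, and the same values were 81.2%, 86.5%, 96.4%, 3 and 24.1%. With replicate 1 defining the regions, without replicate 2, there were 141 members, 20.6% of them in the middle 33%, spaced 742.5 bp apart; replicate 2 then overlapped 94.3% of members and 96.6% of regions and covered a median of 100% of a region. With the higher-scoring 50% of replicate 1 peaks, recurrence was 54.3% of members and 47.4% of regions. The score difference was -6.54 against narrow sites alone. No alternative kept only the highest-scoring member of each region, whose median of 7.96 was above the 6.53 of the other autosomal peaks. Other measures gave 45.7% in the middle 50%, a mean of 2.33 members per region and a gap of 223 bp. The cause was not tested, except that a narrower list or another measure changes the value by construction. After the data were seen, 3 values were added, with neighbouring regions merged or left out: 75.6% of 78 merged loci recurred, and 159 members outside clusters had a score difference of -1.49. Leaving out replicate 1 leaves the results that do not use it as they are. No paired analysis was possible because peaks of a single group were used, with no second group to pair them with. Unknown depth and 2 replicates limit all results.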
